A study of Cavia porcellus with 35 samples.

Results

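The genes described here are the potassium channel genes, taken as every gene whose symbol in the deposited count tables starts with KCN, whatever its case. There were 69 such genes among 12100 genes listed in 4 tables, 1 each for F1 females, F2 females, F3 females and F1 males, and 61 of them were listed in every table. A filter on low counts left 61 KCN genes to be tested in F1 females, 61 in F2 females, 64 in F3 females and 66 in F1 males. Only KCNG3 and KCNQ1 in F3 females were listed and did not pass that filter. By family, 11 genes belonged to KCNA to KCND, 8 to KCNF, KCNG, KCNS and KCNV, 5 to KCNH, 5 to KCNQ, 7 to KCNMA, KCNN and KCNT, 10 to KCNJ and 12 to KCNK, and 11 encoded auxiliary subunits.

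The samples were punches of the medial prefrontal cortex of guinea pigs at postnatal day 40, with 1 library of mRNA for each of 35 animals. The F1 sGC animals were born to mothers given repeated courses of betamethasone, a synthetic glucocorticoid (sGC), late in pregnancy, and the F1 controls to mothers given saline. F2 and F3 animals descended from the F1 animals through males mated with untreated females. Each generation of females held 4 control and 4 sGC animals, and the F1 males 5 control and 6 sGC animals. The animals sequenced were those whose punches had given enough intact RNA, and each punch holds a mixture of neurons, glia and vessels. In such bulk samples, fewer cells of a type and less RNA per cell cannot be told apart.

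Potassium channels let potassium leave a cell and so hold the membrane near its resting potential, end action potentials and set the rate at which a neuron can fire again. Voltage-gated channels (KCNA to KCNH, KCNQ) open on depolarisation, inward rectifiers (KCNJ) and leak channels (KCNK) act near rest, and KCNMA, KCNN and KCNT channels open when calcium or sodium rises inside the cell. In the cortex, glial inward rectifiers take up the potassium that active neurons release.

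Libraries held between 12819964 and 31763585 reads assigned to genes, and the KCN genes took between 0.520% and 0.635% of them. Some F1 female libraries stood apart in markers of neuron types that differ between brain regions. The summed level of 6 cortical glutamatergic markers ranged from 228 to 1223 CPM (reads of a gene relative to the TMM-corrected library total) in the F1 female controls and from 1109 to 4341 CPM in the sGC animals. None of these 6 genes passed the test. Within that list, SLC17A7, the vesicular glutamate transporter of cortical excitatory neurons, stood at 989, 317, 171 and 240 CPM in the 4 controls and at 1313, 1234, 884 and 3575 CPM in the 4 sGC animals. The summed level of 7 markers of striatal medium spiny neurons ranged from 492 to 2352 CPM in those controls and from 223 to 572 CPM in the sGC animals, and 4 of the 7 were lower in sGC animals at FDR under 0.05. In F3 females the cortical sums were 589 to 988 CPM in controls and 1132 to 1413 CPM in sGC animals, and the striatal sums 310 to 945 and 208 to 454 CPM. In F2 females (1571 to 1663 against 1553 to 1843 CPM) and F1 males (1669 to 1966 against 1664 to 1818 CPM) the cortical sums of the groups overlapped. Sums of the listed hypothalamic markers, measured because a protocol label names a hypothalamic nucleus, stayed between 6.58 and 19.3 CPM in all libraries.

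**Figure D1:**
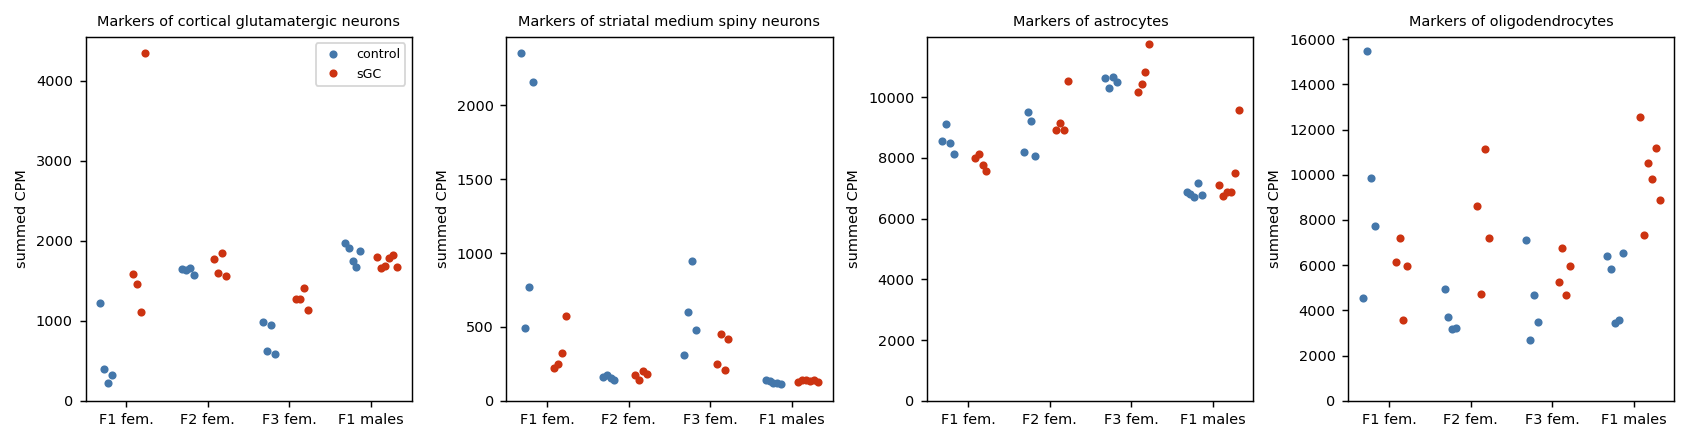
Summed level (CPM, linear axis from 0) of the listed markers of cortical glutamatergic neurons, striatal medium spiny neurons, astrocytes and oligodendrocytes in each animal, by table. Blue points are control and red points sGC animals. The F1 female controls reach 2352 CPM for the striatal markers, the F1 female sGC animals reach 4341 CPM for the cortical markers, and the oligodendrocyte sums of the F1 male sGC animals all lie above those of the F1 male controls.

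In F1 females, KCN genes were mostly higher in the sGC animals. Of 61 tested, 16 rose and 1 fell, or 17 in all, by the quasi-likelihood test of edgeR with FDR under 0.05, where FDR is the p-value adjusted over all tested genes. Over all tested genes 16.5% passed in either direction, 9.21% upward and 7.33% downward. The median log2 fold change (sGC against control) was 0.15 for the KCN genes and -0.03 for all tested genes. The genes that rose were the G protein-gated channels KCNJ3, KCNJ6 and KCNJ9, the ATP-sensitive channel Kcnj11, the leak channels KCNK4, Kcnk9 and KCNK10, the calcium- and sodium-activated channels KCNMA1, KCNN1 and KCNT2, the voltage-gated channels KCNC2, KCNH1 and KCNQ3, the modulatory subunit KCNS2 and the auxiliary subunits KCNIP3 and KCNAB2. The gene that fell was KCNJ10, the inward rectifier of glia. The groups did not overlap for 15 of the 61, 12 higher and 3 lower, against 23.2% of all tested genes, 12% higher and 11.2% lower. An unadjusted p under 0.05 was reached by 31 KCN genes and by 34.2% of all tested genes.

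The count in F1 females changed when 1 animal was left out, which also made its group smaller. It was 25 without control 1 and 17 without sGC 2. It dropped to 12 without control 2, 7 without control 3 and 9 without control 4. It also dropped to 10 without sGC 1, 11 without sGC 3 and 10 without sGC 4, the library with the highest cortical markers. Kcnj11, KCNJ3, KCNH1, KCNMA1, KCNIP3 and KCNK10 passed in each of the 8 fits that left out 1 animal. The cortical and striatal marker sums given above moved with these groups, and their part in the KCN results was not tested.

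In F3 females, 7 of 64 KCN genes rose and 0 fell, against 1.34% of all tested genes in either direction, 1.07% upward and 0.271% downward. Among them were KCNC2, Kcnj11, KCNK4, KCNK12, KCNIP3 and KCNAB2. The groups did not overlap for 19 KCN genes, all higher in sGC animals, where 10.3% of all tested genes did not overlap, 5.95% higher and 4.35% lower. An unadjusted p under 0.05 was reached by 29 KCN genes and by 17.3% of all tested genes. The median log2 fold change was 0.14 for the KCN genes and -0.01 for all tested genes. No KCN gene passed without control 2, control 4, sGC 2 or sGC 3, 2 passed without sGC 1 or without sGC 4, and 13 passed without control 1. The likelihood ratio test called 17 KCN genes, 15 higher and 2 lower, and DESeq2 called 15, 14 higher and 1 lower. The cortical marker sums of the F3 groups also did not overlap, and their part in the result was not tested.

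In F2 females 0 of 61 KCN genes passed edgeR's quasi-likelihood test, against 0.278% of all tested genes, 0.153% upward and 0.126% downward. An unadjusted p under 0.05 was reached by 20 KCN genes and by 16.1% of all tested genes. The likelihood ratio test and DESeq2 each called 2, KCND3, a pore subunit of transient A-type channels, lower and KCNIP3 higher, and 1 gene, KCND3, passed without sGC 2. Without overlap of the groups, KCNIP3, KCNJ10, KCNK2 and KCNA5 were higher and KCNK10 and KCNJ2, an inward rectifier named after its value was seen, lower in sGC animals, 6 genes where 8.09% of all tested genes did not overlap, 4.08% higher and 4.02% lower.

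In F1 males 4 of 66 KCN genes rose and 3 fell, or 7 in all, against 9.22% of all tested genes in either direction, 5.74% upward and 3.48% downward. KCNK13, KCNJ10, KCNK1 and KCNA1 rose, and KCNG1, KCNN3 and KCNA3 fell. More KCN genes had a negative than a positive log2 fold change, 43 against 23, and the median was -0.06. The groups did not overlap for 3 KCN genes, 2 higher and 1 lower, against 6.26% of all tested genes, 4.22% higher and 2.04% lower. An unadjusted p under 0.05 was reached by 20 KCN genes and by 25.2% of all tested genes. KCNG1, KCNK13, KCNJ10 and KCNN3 passed in each of the 11 fits without 1 animal, while the count was 4 without sGC 1, sGC 4 or sGC 5 and 14, with 5 higher and 9 lower, without sGC 6. The likelihood ratio test and DESeq2 each called 11 KCN genes, 4 higher and 7 lower.

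**Figure D2:**
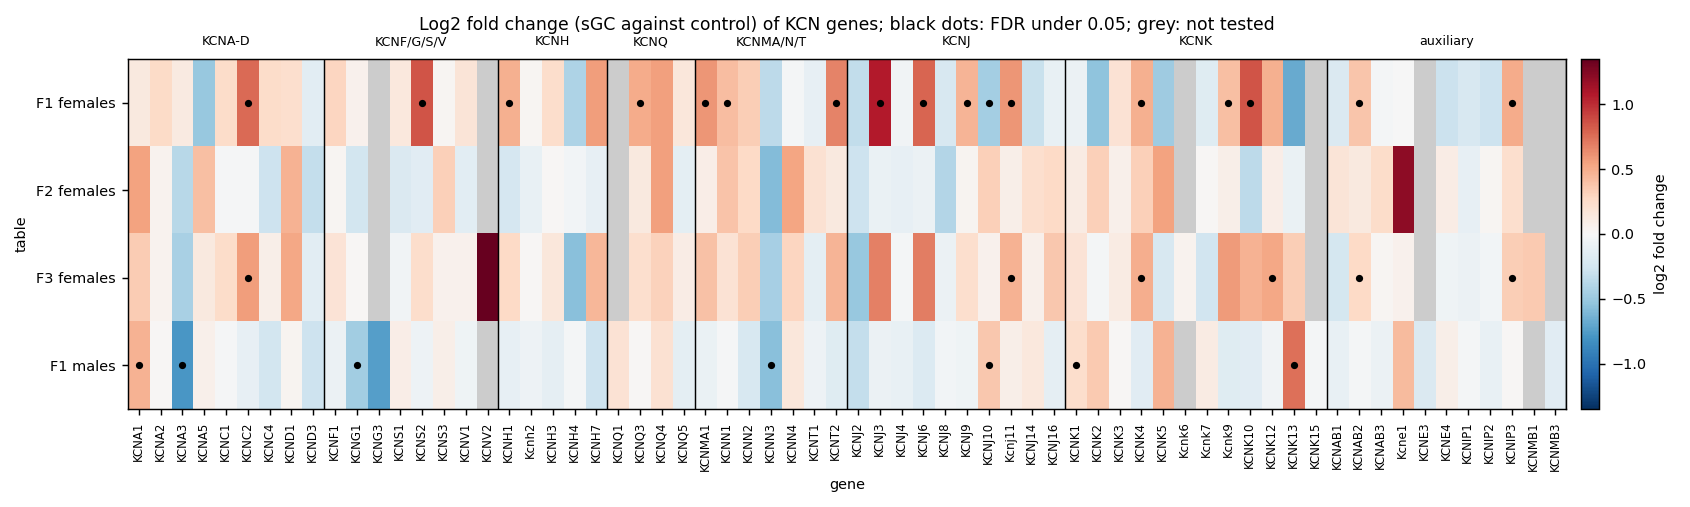
Log2 fold change of sGC against control animals for 66 of the KCN genes (columns, grouped by family) in the 4 tables (rows), in red where the sGC animals were higher and in blue where they were lower. Black dots mark FDR under 0.05 (17 genes in F1 females, 0 in F2 females, 6 in F3 females and 7 in F1 males), and grey marks genes not tested in that table.

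Among the voltage-gated channels of families KCNA to KCND, 1 of 11 rose in F1 females, 2 of 11 rose in F3 females, and in F1 males 1 rose and 1 fell. Over all tested genes, 9.21% rose and 7.33% fell in F1 females, 1.07% and 0.271% in F3 females, and 5.74% and 3.48% in F1 males. These shares apply to every family below, and families of so few genes give imprecise shares. KCNC2, a channel that closes fast and lets interneurons fire at high rates, rose in F1 females by 0.77 ± 0.18 on the log2 scale (SE, FDR 0.025), from 131 ± 15.2 to 223 ± 56.7 CPM (mean ± SD, n = 4 per group). Its F1 groups overlapped, since sGC 2 stood at 144 CPM and control 1 at 150 CPM, and it passed in 2 of 8 fits without 1 animal. In F3 females KCNC2 rose from 114 ± 14.3 to 169 ± 13 CPM without overlap (log2 fold change 0.56 ± 0.09, FDR 0.0256). Its levels were close in F2 females, at 186 ± 9.59 and 184 ± 13.7 CPM. KCNC1, of the same fast type, had a log2 fold change of 0.24 in F1 and 0.25 in F3 females and did not pass in either.

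KCNA1, a channel of axons, rose in F1 males by 0.47 ± 0.13 on the log2 scale (FDR 0.0387), from 215 ± 45.4 CPM (n = 5) to 298 ± 37.2 CPM (n = 6). Its fold change was also positive in F1, F2 and F3 females (0.13, 0.55 and 0.34), without passing there. KCNA2, its frequent partner, differed by 0.01 in F1 males and by 0.26 in F1 females on the log2 scale, and passed in no table. KCNA3, known from immune cells, fell in F1 males by 0.79 ± 0.22 on the log2 scale (FDR 0.0407), from 12.5 ± 3.29 to 7.22 ± 2.49 CPM. The call rested on a gene of low level whose groups overlapped, and it held in 3 of 11 fits without 1 animal. In F2 and F3 females KCNA3 had log2 fold changes of -0.37 and -0.43, at FDR 0.364 and 0.241. KCND3 was at a lower mean in sGC animals of every table, with log2 fold changes from -0.14 to -0.32, and passed in none.

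KCNF, KCNG, KCNS and KCNV genes encode modulatory subunits that conduct when joined to pore subunits of other voltage-gated families. KCNG1 had the smallest FDR of all KCN genes, in F1 males. It stood at 45.4, 55.6, 58.1, 56.5 and 53.1 CPM in the 5 controls, and in the 6 sGC animals the lowest value was 35.4, the median 39.4 and the highest 41.3 CPM. Every sGC male lay below every control male. KCNG1 fell there by 0.47 ± 0.06 on the log2 scale (FDR 0.00303), and by 0.44 to 0.52 without 1 animal. In F1 females it was 50.5 ± 4.56 and 52.7 ± 4.74 CPM, and in F3 females 42.4 ± 8.38 and 42.9 ± 7.39 CPM. F2 females had 72.9 ± 9.32 and 61.2 ± 5.76 CPM with overlapping groups (FDR 0.251). KCNS2 rose in F1 females from 28.5 ± 7.26 to 51.2 ± 13.5 CPM (log2 fold change 0.84 ± 0.23, FDR 0.0414), with overlapping groups, and passed in 2 of 8 fits without 1 animal. KCNV2, a subunit known from photoreceptors, had the highest log2 fold change among the KCN genes of F3 females at 1.34 ± 0.46, between 0.906 ± 0.548 and 2.32 ± 1.11 CPM, and did not pass (FDR 0.178).

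Of the 5 KCNH genes, KCNH1 rose in F1 females. KCNH1 encodes the ether-a-go-go channel of neurons. Its F1 female controls were at 108, 91.4, 101 and 104 CPM and the sGC animals at 138, 137, 155 and 135 CPM. The groups were apart, with sGC 3 above the other 3 sGC animals. The log2 fold change was 0.48 ± 0.07 (FDR 0.00545). In F3 females the controls, at 96.1, 84.4, 102 and 80.8 CPM, also lay below the sGC animals, at 111, 106, 112 and 107 CPM, with a log2 fold change of 0.26 ± 0.07 that did not pass (FDR 0.107). In F2 females and F1 males its log2 fold change was negative, -0.22 and -0.11, at FDR 0.24 and 0.179. KCNH7, an erg channel, had log2 fold changes of the same sign as KCNH1 in each table (0.56, -0.11, 0.45 and -0.28 in F1, F2 and F3 females and F1 males) and passed in no table. KCNH4, an elk channel, had the lowest log2 fold change among the KCN genes of F3 females, -0.57 ± 0.17 (FDR 0.133).

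KCNQ3 and KCNQ5 contribute to the M channels, which open slowly below the firing threshold and are closed by muscarinic receptors. KCNQ3 was at 170, 127, 128 and 133 CPM in F1 female controls and at 178, 183, 217 and 208 CPM in the sGC animals. Control 1 was far above the other 3 controls and still below every sGC animal. KCNQ3 rose by a log2 fold change of 0.50 ± 0.11 (FDR 0.0197) and passed in 6 of 8 fits without 1 animal. In F3 females the groups were likewise apart, at 153 ± 16.9 and 179 ± 10.5 CPM, with FDR 0.196. In F1 males the means were 156 ± 19.3 and 158 ± 9.38 CPM. KCNQ5 did not pass in any table, with log2 fold changes from -0.13 to 0.15.

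**Figure D3:**
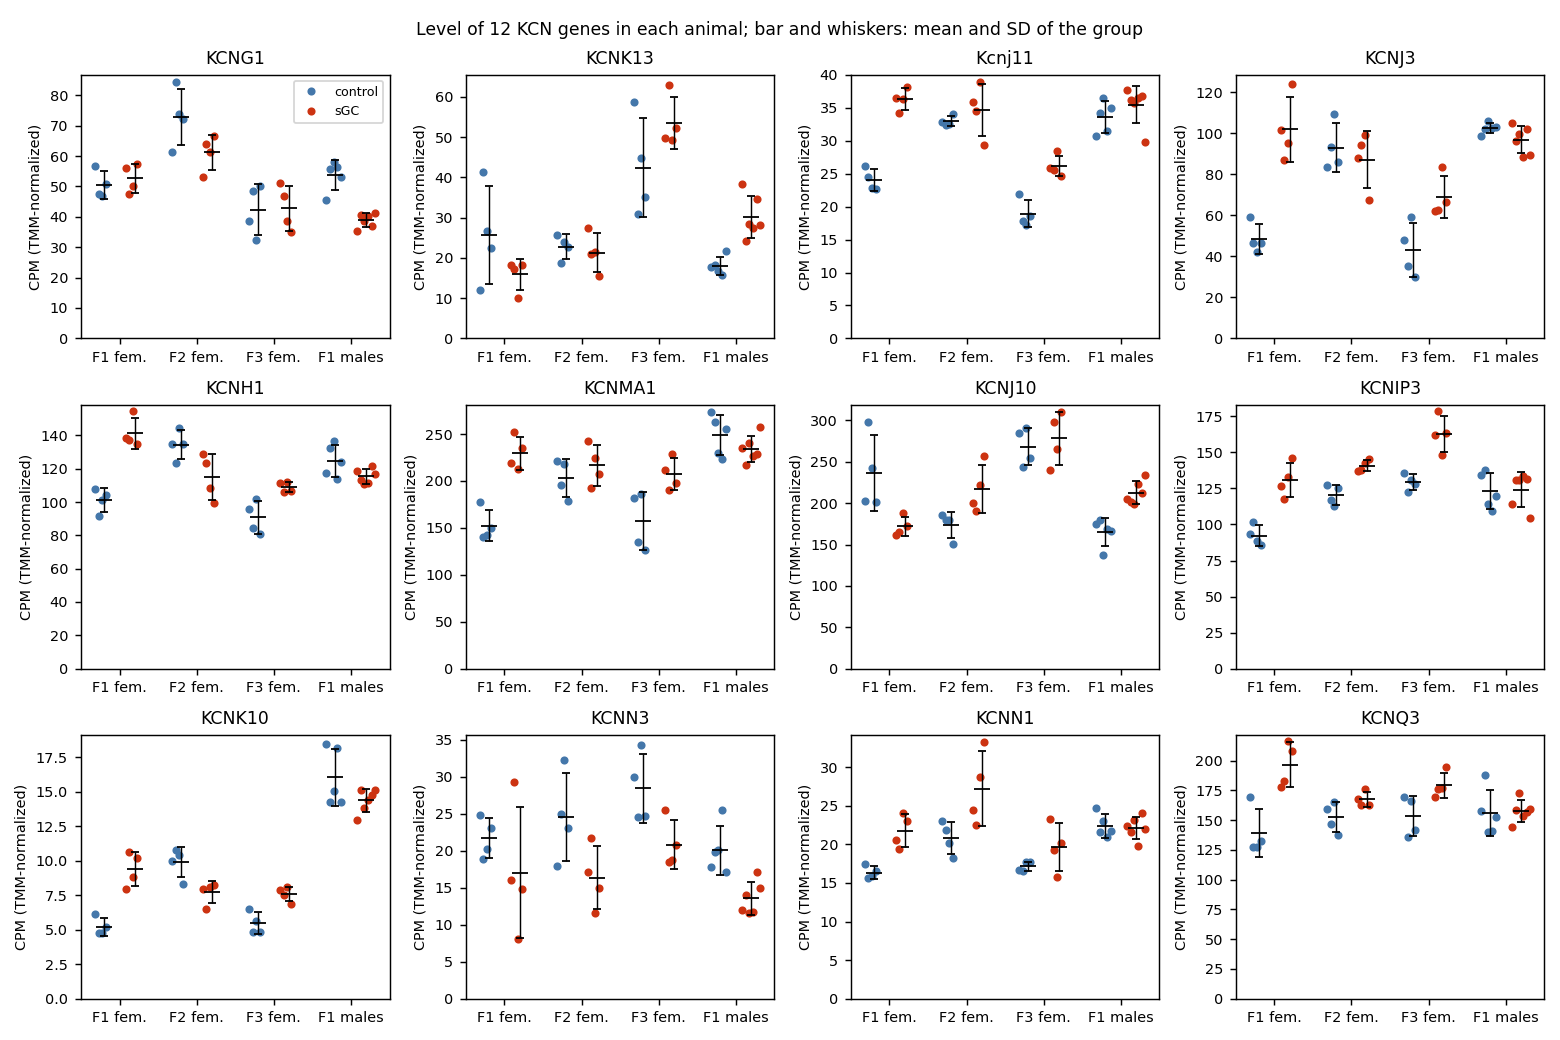
Level (TMM-normalized CPM, linear axes from 0) of the 12 KCN genes with the smallest FDR in any table, in each animal. Blue points are control and red points sGC animals of each table, and black bars and whiskers give the group mean and SD (n = 4 per group in females, 5 control and 6 sGC males). KCNJ3, Kcnj11 and KCNMA1 of F1 females and KCNG1 and KCNK13 of F1 males show groups that do not overlap.

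Calcium- and sodium-activated channels gave 3 calls of 7 in F1 females, all upward, and 1 downward call in F1 males. Over all tested genes, 9.21% rose in F1 females and 3.48% fell in F1 males. KCNMA1, the pore of the large-conductance BK channel, was at 177, 140, 143 and 150 CPM in F1 female controls and at 220, 252, 212 and 236 CPM in sGC animals. No control reached the lowest sGC animal. It rose by a log2 fold change of 0.59 ± 0.09, or 1.51-fold (FDR 0.0058). The F3 groups, at 157 ± 30.9 and 207 ± 17.2 CPM, were also apart (FDR 0.153), and the F1 male means were 249 ± 21.5 and 234 ± 13.8 CPM.

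The KCNN genes encode small-conductance channels that follow an action potential with a slow hyperpolarisation. KCNN1 stood at 17.4, 15.6, 15.8 and 16.5 CPM in F1 female controls and at 20.6, 19.4, 24 and 23 CPM in sGC animals. The groups were apart, and KCNN1 rose by a log2 fold change of 0.41 ± 0.09 (FDR 0.0171). In F2 females its log2 fold change was 0.39 ± 0.13 with FDR 0.168, and in F1 males -0.02. KCNN3 fell in F1 males, where the controls were at 17.7, 19.8, 20.1, 25.4 and 17.1 CPM and the sGC animals had a lowest value of 11.6, a median of 13 and a highest value of 17.1 CPM. The groups met at 17.1 CPM. The log2 fold change was -0.56 ± 0.12 (FDR 0.013). KCNN3 also had negative log2 fold changes in F1, F2 and F3 females, -0.35, -0.58 and -0.45, of which none passed, and the F2 value was the lowest of any KCN gene in that table. KCNN2 stood at 20.5 ± 1.43 and 25.7 ± 0.765 CPM in F3 females without overlap (FDR 0.0518) and at 34.2 ± 3.10 and 29.3 ± 2.24 CPM in F1 males (FDR 0.0625). KCNT2, a sodium-activated channel, rose in F1 females from 11.7 ± 2.21 to 18.7 ± 3.42 CPM (log2 fold change 0.67 ± 0.17, FDR 0.0301), and held in 4 of 8 fits without 1 animal. Its relative KCNT1 passed in no table, with log2 fold changes from -0.13 to 0.20.

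Inward rectifiers held KCNJ3, the KCN gene with the highest log2 fold change in F1 females. Among F1 females, 4 of 10 KCNJ genes rose and 1 fell, against 9.21% and 7.33% of all tested genes. KCNJ3, KCNJ6 and KCNJ9 encode subunits of the channels that G protein-coupled receptors open to quiet a neuron. KCNJ3 was at 58.9, 46.5, 42.0 and 46.7 CPM in the F1 female controls and at 102, 87.0, 95.1 and 124 CPM in the sGC animals. The lowest sGC animal lay well above the highest control. KCNJ3 rose 2.10-fold, a log2 fold change of 1.07 ± 0.13 (FDR 0.0039), and by 0.96 to 1.20 on the log2 scale without 1 animal. In F3 females the controls were at 48.1, 35.4, 59.0 and 29.7 CPM and the sGC animals at 62.2, 62.7, 83.7 and 66.4 CPM. These groups were apart too, while the log2 fold change of 0.68 ± 0.20 did not pass (FDR 0.115). In F2 females KCNJ3 was at 93.0 ± 11.7 and 87.2 ± 14.1 CPM and in F1 males at 102 ± 2.49 and 96.8 ± 6.66 CPM, and did not pass. KCNJ6 rose in F1 females from 28.1 ± 9.99 to 48.7 ± 8.77 CPM (log2 fold change 0.79 ± 0.23, FDR 0.0461). Its control 1, at 43.0 CPM, lay among the sGC animals, and the call held in 1 of 8 fits without 1 animal. KCNJ9 rose in F1 females from 58.2 ± 8.46 to 80.2 ± 6.07 CPM (0.46 ± 0.10, FDR 0.0214). In F3 females KCNJ9 stood at 249 ± 2.96 and 291 ± 15.7 CPM without overlap and with FDR 0.0674.

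Kcnj11 forms the pore of the channel that closes when ATP is plentiful. In F1 females it stood at 26.2, 24.5, 22.9 and 22.7 CPM in controls and 36.5, 34.2, 36.3 and 38.2 CPM in sGC animals. Values within each group lay close together and the groups were apart. Kcnj11 rose by a log2 fold change of 0.59 ± 0.07 (FDR 0.0039). In F3 females it rose again, from 21.9, 17.8, 17.3 and 18.6 CPM in controls to 25.9, 25.6, 28.4 and 24.7 CPM in sGC animals, by 0.47 ± 0.09 on the log2 scale (FDR 0.0377). That call held in 1 of 8 fits without 1 animal, although no F3 sGC animal reached down to a control. In F2 females (33.0 ± 0.782 and 34.7 ± 3.97 CPM) and F1 males (33.6 ± 2.44 and 35.5 ± 2.83 CPM) the groups overlapped. KCNJ8, which forms the same kind of channel in vessels, passed in no table, with log2 fold changes from -0.39 to -0.04.

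KCNJ10, the channel through which astrocytes and oligodendrocytes take up potassium, was the only KCN gene called in both F1 females and F1 males, and its directions were opposite. It made up 5.88% of the F1 female and 14.3% of the F1 male KCN calls. Over all genes, 249 calls were shared, 13.4% and 23.4% of the calls. Opposite directions were not particular to KCNJ10, since the paper reports them for most genes changed in both F1 sexes, KCNJ10 among them. F1 female controls were at 202, 299, 242 and 202 CPM and sGC animals at 162, 166, 188 and 172 CPM. All 4 sGC females lay below the controls, of which control 2 was the highest. KCNJ10 fell there by 0.46 ± 0.12 on the log2 scale (FDR 0.0388), a call that held in 3 of 8 fits without 1 animal. In F1 males the controls were at 175, 179, 137, 169 and 166 CPM, and the sGC animals had a lowest value of 199, a median of 209 and a highest value of 234 CPM. All 6 sGC males lay above the 5 controls, and KCNJ10 rose by a log2 fold change of 0.36 ± 0.07 (FDR 0.00663). F2 females had 186, 179, 180 and 151 CPM in controls and 201, 191, 222 and 257 CPM in sGC animals, apart but with FDR 0.147. In F3 females the groups overlapped, at 269 ± 22.9 and 279 ± 31.8 CPM. KCNJ16, which joins KCNJ10 in glia, passed in no table.

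KCNJ10 is a glial gene, and the glial markers of the same libraries were as follows. In F1 females 3 of 8 astrocyte markers were lower at FDR under 0.05 and their sum was 8137 to 9109 CPM in controls and 7582 to 8131 CPM in sGC animals. None of the 6 oligodendrocyte markers passed there, and their sum ranged from 4565 to 15463 CPM in controls and from 3563 to 7215 CPM in sGC animals. In F1 males 6 of 6 oligodendrocyte markers were higher, with sums of 3429 to 6539 CPM in controls and 7316 to 12571 CPM in sGC animals, while 0 of 8 astrocyte markers passed. In F2 females the oligodendrocyte sums were 3179 to 4930 CPM in controls and 4742 to 11130 CPM in sGC animals, and none of 6 oligodendrocyte or 8 astrocyte markers passed. The part of these glial markers in the KCNJ10 result was not tested.

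Of the KCNK leak channels, 3 of 10 rose in F1 females, 2 of 11 in F3 females and 2 of 11 in F1 males, and none fell. Over all tested genes, 9.21%, 1.07% and 5.74% rose in these tables, and 7.33%, 0.271% and 3.48% fell. KCNK10, a channel opened by stretch and lipids, was at 6.13, 4.77, 4.75 and 5.19 CPM in F1 female controls and at 7.94, 10.6, 8.79 and 10.2 CPM in sGC animals. The groups were apart, and KCNK10 rose 1.80-fold, a log2 fold change of 0.85 ± 0.14 (FDR 0.0077). In F2 females the order was the other way, 9.97, 10.8, 10.4 and 8.32 CPM in controls and 7.95, 6.53, 8.12 and 8.22 CPM in sGC animals. The F2 groups were apart by a narrow gap, and the log2 fold change of -0.35 ± 0.12 did not pass (FDR 0.198). In F3 females KCNK10 stood at 5.46 ± 0.795 and 7.59 ± 0.530 CPM without overlap (FDR 0.0973).

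KCNK4, a mechanically opened relative of KCNK10, rose in F1 females from 11.3 ± 0.948 to 15.8 ± 2.05 CPM (log2 fold change 0.48 ± 0.11, FDR 0.0245) and in F3 females from 13.3 ± 0.965 to 18.7 ± 1.22 CPM (0.49 ± 0.08, FDR 0.0256). Neither pair of groups overlapped. KCNK2, the third gene of that kind, passed in no table, with log2 fold changes of -0.54 in F1 females, 0.33 in F2 females, -0.03 in F3 females and 0.35 in F1 males. Kcnk9, an acid-sensitive channel, rose in F1 females from 50.4 ± 5.66 to 66.8 ± 5.80 CPM (0.41 ± 0.10, FDR 0.0244). In F3 females it stood at 41.0 ± 10.1 and 61.1 ± 10.5 CPM and did not pass (FDR 0.134).

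KCNK12 and KCNK13 encode halothane-inhibited channels, of which KCNK13 is known from microglia. KCNK12 had the smallest FDR among the KCN genes of F3 females. Its mean went from 29.6 ± 2.24 to 42.6 ± 3.49 CPM, and it rose by 0.53 ± 0.08 on the log2 scale (FDR 0.0208), without overlap and in 4 of 8 fits without 1 animal. KCNK13 rose in F1 males, where the controls were at 17.7, 18.2, 16.7, 15.8 and 21.7 CPM and the sGC animals had a lowest value of 24.3, a median of 28.3 and a highest value of 38.3 CPM. Every sGC male lay above every control male. The log2 fold change was 0.75 ± 0.12 (FDR 0.00364). In F1 females KCNK13 was at 12.1, 41.3, 26.6 and 22.5 CPM in controls and at 18.2, 17.2, 10.1 and 18.1 CPM in sGC animals. The groups overlapped, with sGC 3 below every control, and the log2 fold change of -0.68 ± 0.34, the lowest among the KCN genes of that table, did not pass (FDR 0.188). Summed microglial markers were 159 to 190 CPM in control and 163 to 199 CPM in sGC males, with none called, whereas in F1 females they were 216 to 269 and 163 to 185 CPM, with 3 of 4 tested markers lower. Within F1 males and within F1 females, the oligodendrocyte sum was highest in the animal with the most KCNK13, male sGC 1 (12571 CPM) and female control 2 (15463 CPM). Among F1 females it was lowest in the animal with the least, sGC 3 (3563 CPM). In F2 females neither end matched. The sum was highest in sGC 3 (11130 CPM) and KCNK13 in sGC 1 (27.3 CPM), and the lowest were control 3 (3179 CPM) and sGC 4 (15.4 CPM). In F3 females the sum was highest in control 1 (7112 CPM) and KCNK13 in sGC 2 (62.9 CPM). Each was next highest in the other measure, sGC 2 with a sum of 6772 CPM and control 1 with KCNK13 at 58.7 CPM. F3 control 2 was lowest in both (2694 and 30.9 CPM), followed by control 4 (3495 and 35.1 CPM). The part of these markers in the KCNK13 values was not tested. KCNK1, a weakly conducting channel of astrocytes and neurons, rose in F1 males from 191 ± 15.3 to 225 ± 14 CPM (0.23 ± 0.06, FDR 0.0245) and held in 5 of 11 fits without 1 animal.

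Among the auxiliary subunits, KCNIP3 and KCNAB2 rose in both F1 and F3 females. KCNIP3, also named calsenilin, is a calcium-binding partner of the KCND channels. It stood at 93.1, 102, 88.2 and 85.9 CPM in F1 female controls and at 127, 118, 133 and 146 CPM in sGC animals. In F3 females the controls were at 136, 123, 131 and 128 CPM and the sGC animals at 162, 178, 148 and 163 CPM. Both pairs of groups were apart, with log2 fold changes of 0.50 ± 0.08 (FDR 0.00688) in F1 and 0.33 ± 0.06 (FDR 0.041) in F3 females. In F2 females, KCNIP3 was at 127, 117, 113 and 125 CPM in controls and at 137, 138, 142 and 145 CPM in sGC animals. There too the groups did not overlap, at a log2 fold change of 0.22 ± 0.06 and FDR 0.0968. F1 males had 123 ± 12.5 and 124 ± 12 CPM, a log2 fold change of 0.01 ± 0.08. KCNAB2, a cytoplasmic subunit of KCNA channels, rose from 290 ± 29.1 to 375 ± 45.6 CPM in F1 females (0.37 ± 0.10, FDR 0.0397) and from 181 ± 1.73 to 218 ± 13.2 CPM in F3 females (0.27 ± 0.05, FDR 0.0429). The KCNAB2 groups overlapped in F1 females and did not in F3 females. KCNAB1 and KCNIP2 passed in no table, with log2 fold changes of -0.19 and -0.28 in F1 females. Kcne1, a subunit of KCNQ1 channels, had the highest log2 fold change among the KCN genes of F2 females, 1.21 ± 0.44, between 0.503 ± 0.279 and 1.14 ± 0.492 CPM, and did not pass (FDR 0.215).

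To ask whether the response of a gene differed between tables, the difference of the log2 fold changes was tested as an interaction for 4 pairs of tables, which share no animals. Between F1 females and F1 males, 29 of 61 KCN genes differed at FDR under 0.05, against 31.7% of all tested genes, and 33 had an unadjusted p under 0.05, against 42.2%. In 26 of the 29 the log2 fold changes had opposite signs, and in 23 the value was lower in males. Only KCNJ10 was called in both tables, so most of these opposite signs are not called changes in both. Among all genes that differed, neither the share of opposite signs nor the share lower in males was counted. Called or not, 37.7% of KCN genes and 34.7% of all genes had the same sign in these tables. The 26 and the 23 therefore cannot be read as particular to KCN genes. KCNJ3 had the smallest FDR, with 1.07 in F1 females, -0.08 in F1 males and a difference of -1.16 ± 0.13 on the log2 scale (FDR 1.3e-05). KCNH1 differed by -0.60 ± 0.09, KCNK10 by -1.01 ± 0.15, KCNMA1 by -0.69 ± 0.11, Kcnj11 by -0.52 ± 0.10, KCNJ9 by -0.53 ± 0.10, KCNC2 by -0.89 ± 0.18 and KCNT2 by -0.84 ± 0.18, each lower in males. KCNG1 differed by -0.54 ± 0.11, from a log2 fold change of 0.06 in F1 females to -0.47 in F1 males. KCNJ10 differed upward by 0.81 ± 0.14 (FDR 0.000338) and KCNK13 by 1.42 ± 0.33 (FDR 0.00394). The cortical and striatal marker sums of F1 females given above moved with the groups, while the cortical sums of F1 males overlapped. The part of these sums in the interactions was not tested.

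Between F1 and F2 females, 14 of 61 KCN genes differed, against 13.8% of all tested genes, and 25 had an unadjusted p under 0.05, against 30.7%. The signs were opposite for 10 of the 14, although no KCN gene was called in F2 females. The share of opposite signs among all genes that differed was not counted, so the 10 cannot be read as particular to KCN genes. Called or not, 47.5% of KCN genes and 45.8% of all genes had the same sign in F1 and F2 females. KCNK10 led with a difference of -1.21 ± 0.18 (FDR 0.00248), followed by KCNH1 at -0.71 ± 0.12 and KCNJ3 at -1.17 ± 0.20. Kcnj11, KCNC2, KCNMA1, KCNS2 and KCNJ9 also had lower values in F2 females, by 0.43 to 1.01 on the log2 scale. KCNJ10 differed by 0.77 ± 0.17 and KCNA5, a delayed rectifier at 5.71 to 10.9 CPM in the control means of these tables, by 0.92 ± 0.21, both higher in F2 females. The count was 9 without F1 sGC 1, without F1 sGC 3 or without any 1 of the 4 F2 controls, and 17 without F1 control 1. KCNJ9 had control means of 58.2 CPM in F1 and 286 CPM in F2 females, and whether reads were assigned to it alike in every table is not known, which limits what its interactions with F1 females show. Here too the cortical and striatal marker sums moved with the F1 female groups, while the cortical sums of F2 females overlapped. The part of these sums in the interactions was not tested.

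Between F1 and F3 females, 0 of 61 KCN genes differed in the quasi-likelihood test of edgeR, against 0.0981% of all tested genes, and 0 in its likelihood ratio test. Here 7 KCN genes had an unadjusted p under 0.05, against 15.8% of all tested genes. Between F2 and F3 females 0 differed in the quasi-likelihood test, against 0.0180% of all tested genes, and 3 in the likelihood ratio test, 2 passed without F3 control 1 and 1 without F3 sGC 4, and 15 had an unadjusted p under 0.05, against 11.5% of all tested genes. Log2 fold changes had the same sign in F1 and F3 females for 49 of 61 KCN genes, or 80.3%, against 66.3% of all genes tested in both. Across the KCN genes, which share libraries and are not independent, Pearson's r between F1 and F3 females was 0.71, against 0.51 across all genes. The share with the same sign was 37.7% for F1 females and F1 males (34.7% of all genes) and 47.5% for F1 and F2 females (45.8% of all genes).

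Of the 17 KCN genes called in F1 females and the 7 in F3 females, 5 were called in both, Kcnj11, KCNC2, KCNIP3, KCNK4 and KCNAB2, all upward. They make up 29.4% of the F1 and 71.4% of the F3 calls. Over all genes, 79 calls were shared, 4.24% of the F1 and 51.6% of the F3 calls. In both tables the cortical marker sums lay higher in sGC animals, with overlap in F1 females, and their part in the shared calls was not tested. KCNQ3, KCNIP3, Kcnj11 and KCNA1 were among 10 KCN genes with a positive log2 fold change in every table. In F1 males the values of KCNQ3, KCNIP3 and Kcnj11 were near 0, at 0.02, 0.01 and 0.08, and that of KCNA1 was 0.47. KCNN3, KCND3 and KCNJ8 were among 7 KCN genes with a negative value in every table. Thus 27.9% of 61 genes kept their sign, against 18.7% of all genes.

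**Figure D4:**
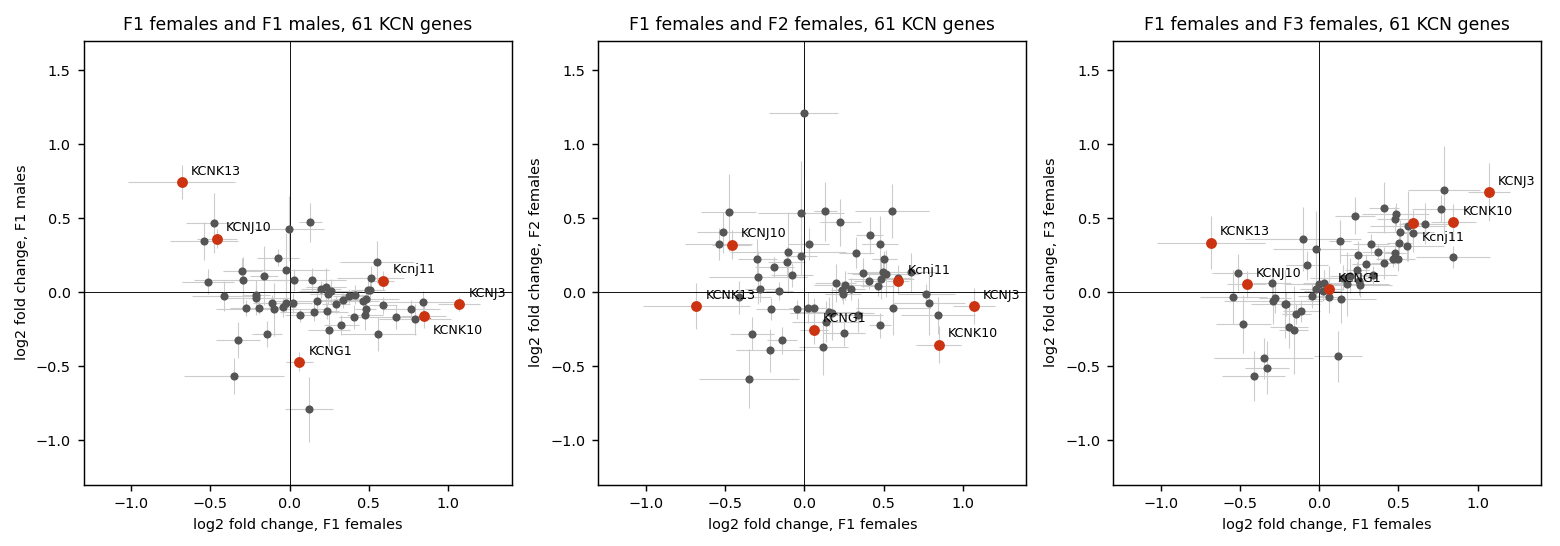
Log2 fold change (sGC against control) of the 61 KCN genes tested in both tables of each panel, F1 females on the horizontal axis and F1 males, F2 females or F3 females on the vertical axis. Grey lines are SE, and 6 genes described in the text are marked in red. KCNJ3 lies at 1.07 in F1 females against -0.08 in F1 males, -0.09 in F2 females and 0.68 in F3 females, and KCNK13 and KCNJ10 lie on opposite sides of 0 in F1 females and F1 males.

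Genes that work with potassium channels without bearing a KCN symbol were read from a list of 30 pumps, cotransporters, pacemaker channels and channel partners, of which 23 were tested in F1 females, F2 females and F1 males and 24 in F3 females. In F1 females 3 of 23 rose and 1 fell, where 16.5% of all tested genes passed in either direction. DPP10, a partner of the KCND channels, rose from 104 ± 13.4 to 163 ± 7.98 CPM (log2 fold change 0.65 ± 0.09, FDR 0.00445). In F3 females 3 of 24 rose and none fell, where 1.34% of all tested genes passed. Among the 3 was Atp1b1, a subunit of the sodium-potassium pump, which rose by 0.36 ± 0.05 (FDR 0.0177). In F2 females 0 of 23 passed, where 0.278% of all tested genes did. CNTN2, an adhesion protein that holds KCNA channels beside nodes of axons, stood there at 150 ± 24.5 and 245 ± 46.2 CPM (FDR 0.0522). In F1 males 2 of 23 rose and 3 fell, where 9.22% of all tested genes passed. CNTN2 rose by 0.74 ± 0.16 (FDR 0.0125) and SLC12A2, a cotransporter that brings potassium and chloride into cells, by 0.63 ± 0.10 (FDR 0.0045), beside the oligodendrocyte markers given above. DPP10 fell by 0.19 ± 0.03 (FDR 0.00593), LGI1, a secreted partner of KCNA1 complexes, by 0.18 ± 0.04 (FDR 0.0147) and HCN3, named after its value was seen, by 0.29 ± 0.07 (FDR 0.0157).

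The median spread among control animals was wider for KCN genes than for all tested genes, which were not matched to them for level. The part of gene level and of the cortical and striatal marker sums in this spread was not tested. The median coefficient of variation over control animals was 13.5% in F1 females, 11.1% in F2 females, 11.2% in F3 females and 10.1% in F1 males for KCN genes, and 8.99%, 7.95%, 7.91% and 8.02% for all tested genes.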

How the data were processed

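RNA from medial prefrontal cortex punches of 35 guinea pigs was sequenced, 1 library per animal. The authors deposited 4 tables, which list for each gene symbol and animal the raw count of reads as a whole number. Per the labels, TopHat2 and edgeR were used. The read counter, the genome build and the filter that left the listed genes are not given in the sources used here. The tables also hold the authors' own dispersion, fold change and test columns from edgeR, which were not used.

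The deposited counts were fitted with edgeR 4.0.16 under R 4.3.3 (with limma 3.58.1). Genes passed filterByExpr (minimum count 10, minimum total count 15), libraries were scaled by TMM, and the quasi-likelihood test set sGC against control animals of the same table, with the method of Benjamini and Hochberg over all tested genes and FDR under 0.05 as threshold. This test was used in place of the likelihood ratio test of the study, which was run as an alternative. Differences between tables were tested as interactions. SE is the absolute log2 fold change over the square root of the F statistic. Levels were not compared between genes, since lengths were not used. The methods were tested on simulated data.

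The members and lists were chosen with earlier results of these data known. Named were all members with FDR under 0.05 in any table (animal values for the 12 with the smallest FDR), 23 members listed by function, the highest and lowest fold change of each table, up to 10 interactions per pair of tables and up to 4 partner genes per table. KCND2 of that list was not analysed here, and results of some other genes are not reported here.

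Alternatives were RLE and upper-quartile scaling, no filter, the likelihood ratio test, DESeq2 1.42.0, a replicate block and the omission of each animal. Reads shared by related channel genes or with overlapping genes could be split by the counting, which the tables do not show. Library totals, given in the results, limit precision most for members of low CPM.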

Additional observations from a re-analysis of the deposited data

Results flagged for a closer look

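In 4 of 62 groups of animals examined for the genes called in a table, 1 animal stood apart from its group by Dixon's criterion, which chance meets in about 1 group in 20. KCNH1 in F1 female sGC 3 was at 154.7 CPM, where the other sGC animals were at 135.0 to 138.2 CPM. F1 female control 1 was high for 3 genes, with 42.95 CPM for KCNJ6 (others 21.9 to 25.2), 169.5 CPM for KCNQ3 (others 127.0 to 132.7) and 333.1 CPM for KCNAB2 (others 272.1 to 278.7). Among the F1 female controls, the same library had the highest sum of cortical glutamatergic markers (1223 CPM) and also of striatal markers (2352 CPM). The part of this in the values was not tested.

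The response to sGC differed between tables for the genes below at FDR under 0.05 in edgeR's interaction test, given as the log2 fold change of the second table minus that of the first. From F1 females to F1 males the differences were -1.16 for KCNJ3, -0.60 for KCNH1, -1.01 for KCNK10, -0.69 for KCNMA1, 0.81 for KCNJ10, -0.52 for Kcnj11, -0.53 for KCNJ9, -0.89 for KCNC2, -0.54 for KCNG1 and -0.84 for KCNT2. From F1 to F2 females they were -1.21 for KCNK10, -0.71 for KCNH1, -1.17 for KCNJ3, -0.52 for Kcnj11, 0.77 for KCNJ10, 0.92 for KCNA5, -0.79 for KCNC2, -0.50 for KCNMA1, -1.01 for KCNS2 and -0.43 for KCNJ9. The cortical and striatal marker sums moved with the F1 female groups, and their part in these differences was not tested.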

How the results depend on the processing

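Counts of called KCN genes changed with the test in tables with few calls, and the cause was not tested. The likelihood ratio test called 2 in F2 females (main count 0), 17 in F3 females (main count 7) and 11 in F1 males (main count 7), and DESeq2 called 2, 15 and 11. For the interaction of F2 and F3 females the likelihood ratio test called 3, against 0. Without 1 animal the counts ranged from 7 to 25 in F1 females, 0 to 1 in F2 females, 0 to 13 in F3 females and 4 to 14 in F1 males, and the interactions from 26 to 32 (F1 females and F1 males), 9 to 17 (F1 and F2 females), 0 to 0 (F1 and F3 females) and 0 to 2 (F2 and F3 females). Upper-quartile scaling called 14 higher and 2 lower in F1 females, and both other scalings 4 higher and 4 lower in F1 males. The median of all genes moved by at most 0.04 on the log2 scale.

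Same-numbered animals correlated between -0.33 and 0.34 in F1 females, with 2 of 4 pairs over 0.1, and 1 pair was over 0.1 in each other table. So few pairs cannot settle whether the numbers pair the animals, and the main tests used no pairing. With the replicate block the counts were 15, 0, 2 and 12 in F1, F2 and F3 females and F1 males, and 27, 10, 0 and 1 for the interactions.

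Of 159 values for single genes, the 31 that were called kept their direction in every alternative. Signs of values not called changed in 62 of 1389 fits without 1 animal and in 2 other fits, for 31 values of at most 0.15 in size on the log2 scale. With 4 animals per group, small changes of low members could be missed.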

Other observations

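Control levels of some KCN genes lay far apart between the tables. Whether reads were assigned to genes alike in every table is not given in the sources used here, and these values are set side by side with no test. Kcnk7 had control means of 96.2 ± 12.5 CPM in F1 and 87.2 ± 3.95 CPM in F2 females, and of 2.11 ± 0.766 CPM in F3 females and 1.09 ± 0.134 CPM in F1 males. KCNJ9 had control means of 58.2 ± 8.46 CPM in F1 females, 286 ± 16.2 CPM in F2 females, 249 ± 2.96 CPM in F3 females and 324 ± 8.28 CPM in F1 males. KCNIP2, a partner of KCND channels, stood at 110 ± 10.6, 71.7 ± 3.58, 273 ± 25.9 and 231 ± 15.2 CPM in the same order. Kcnk7 was picked after its values were seen.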
